A study of Rattus norvegicus with 12 samples.

Results

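The 40 genes described here encode collagens, other proteins of the extracellular matrix, the enzymes and proteases that build and trim it, and proteins of hepatic stellate cells and related contractile cells. They were taken from a list of named genes that was chosen with earlier results of these data known. Each gene was matched to the gene symbol of the probe sets and represented by its brightest probe set over all arrays. All 40 were found among the 13886 genes of the array, and all 40 passed the filter on dim probe sets, which left 11322 genes to be tested. Liver RNA was measured on Affymetrix Rat Genome 230 2.0 arrays, on which each gene is read by 1 or more sets of short probes. The 12 arrays were made from right liver lobes of Sprague-Dawley rats, all labelled as 12 weeks old. They form 4 groups of 3 arrays: rats at 0h, and rats given a high-fat emulsion for 2, 4 or 6 weeks to establish nonalcoholic fatty liver disease. The 0h group had 0 weeks of the emulsion, and unfed means only that here, not fasted. Per the labels the 3 arrays of a group are technical replicates, and the sources used here do not say how many rats each group stands for, so every p-value measures only the spread between these arrays. No group other than that at 0h went without the emulsion, and feeding and elapsed time cannot be told apart.

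In the liver the fibrillar collagens, types I, III and V, form the fibres that accumulate in scar tissue, whereas type IV collagen, laminins and nidogen form the thin basement membranes of vessels and bile ducts. Stellate cells, which store vitamin A in the normal liver, are a main source of fibrillar collagen when they turn into contractile, myofibroblast-like cells. Collagen chains are hydroxylated in the endoplasmic reticulum before they fold, small proteoglycans such as decorin and lumican control the thickness of the fibres, and matrix metalloproteinases and their TIMP inhibitors set the rate of breakdown.

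Markers of the labelled tissue were present. The summed signal of 7 hepatocyte markers lay between 194813 and 248029 on every array. Of the stellate cell markers, the matrix glycoprotein Reln averaged 966 and the vitamin A storage enzyme Lrat 670 in signal on the 0h arrays. The nerve growth factor receptor Ngfr, with a mean signal of 25.5 at 0h, lay below the 30th percentile of the array on all 3 arrays there. The median within-group SD on the log2 scale was 0.15 for the 40 genes and 0.13 for all genes tested. Pancreatic acinar genes stood apart at 0h: their summed signal was 8216 to 9191 there and 857 to 1646 in the 3 fed groups.

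At 2 weeks 22 of the 40 genes were higher than at 0h and 0 were lower, at an adjusted p under 0.05 (limma), where 15.5% of all genes tested were higher and 12.6% lower. The remaining 18 were not called. At an unadjusted p under 0.05 in the same limma fit, 25 were higher and 0 lower. The median log2 change was 0.47 for the 40 genes and 0.01 for all genes. From 2 to 4 weeks 17 fell, 0 rose and 23 were not called, where 8% of all genes fell and 5.13% rose, with a median of -0.46 against -0.03. That step uses no 0h array, and at an unadjusted p under 0.05 it gave 20 lower and 0 higher. In all, 33 of the 40 genes had their highest group mean at 2 weeks. Both steps share the 2-week arrays, and 14 genes were called in both of them. How many of all genes tested had their highest mean at 2 weeks, or both calls, was not counted. The 40 genes were chosen with earlier results of these data known, so these counts describe the list and do not test it.

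Against 0h, the counts at the later times were smaller and mixed. At 4 weeks 4 genes were higher and 4 lower, where 14.3% of all genes were higher and 15.1% lower, and the median change was -0.01 against -0.03. The lower count rested on single arrays and settings: without 4-week array 3 the counts were 6 higher and 2 lower, with median centring 5 and 2, and with only those groups in the fit 4 and 2. At 6 weeks 6 were higher and 7 lower, where 14.7% and 12.6% of all genes were, and the median was 0.02 against 0.01. With only those groups in the fit 3 were higher and 7 lower. From 4 to 6 weeks 2 rose and 2 fell, where 6.27% of all genes rose and 4.12% fell, and without 4-week array 1 or 2 or 6-week array 1 or 3 the 2 that fell became 1. The 3 comparisons with 0h share the same control arrays. The arrays of the groups compared did not overlap for 27 of the 40 genes at 2 weeks (44.4% of all genes tested), 15 at 4 weeks (43%), 16 at 6 weeks (42.8%), 25 from 2 to 4 weeks (32.3%) and 13 from 4 to 6 weeks (29.1%). In whole liver, more cells of a type and more RNA per cell cannot be told apart.

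**Figure D1:**
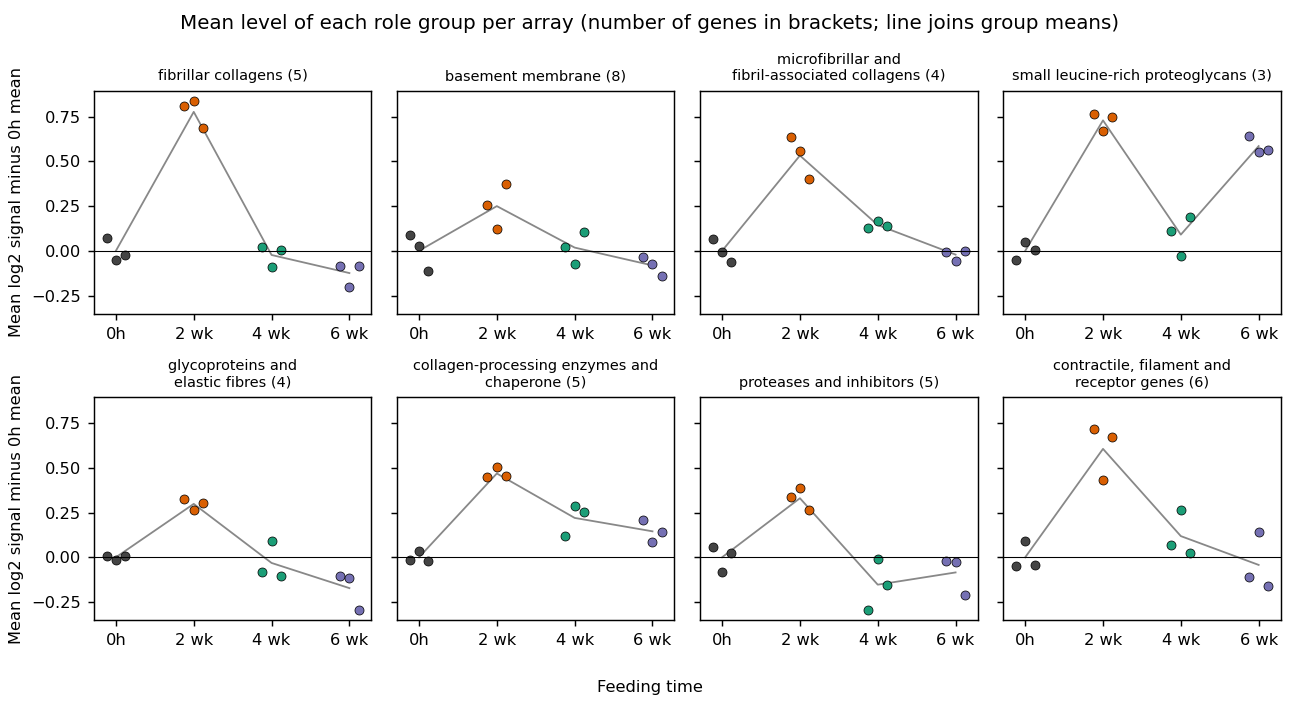
Mean level of each role group on every array, as log2 signal minus the 0h mean (vertical axis) by feeding time (horizontal axis). Points are arrays and the line joins group means. The 5 fibrillar collagens lie between 0.68 and 0.84 at 2 weeks and between -0.20 and 0.02 at 4 and 6 weeks, while the 3 proteoglycans are high at 2 weeks, between -0.03 and 0.19 at 4 weeks, and between 0.55 and 0.64 at 6 weeks.

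Some markers of other cell types moved between the same groups. At 2 weeks the summed signal of 8 endothelial markers was 11101 to 11619 against 8978 to 9713 at 0h, with 2 of 8 called higher and 0 lower. Lyve1 carried most of that rise (mean signal 5355 against 3702), and Vwf (-0.35 ± 0.15) and Tek (-0.11 ± 0.14) had negative changes that were not called. The 8 macrophage markers summed to 31756 to 33185 against 26909 to 27349, with 3 of 8 higher. Smooth muscle markers, of which Acta2 and Tagln are also among the 40 genes, summed to 1225 to 1326 against 785 to 1044. Of 6 tested, 1 was higher, Acta2 itself. Of the others tested, Smtn (mean signal 382 against 264), Tagln (173 against 89.9) and Actg2 (99.0 against 58.7) had higher means. Myh11 (201 against 206) and Cnn1 (100 against 107) had lower ones. Red cell markers summed to 33969 to 35813 against 26193 to 29333, with 3 of 3 tested higher, and the 5 bile duct markers to 1347 to 1472 against 1238 to 1276, with 1 of 3 tested higher. Of the stellate cell markers, Lrat rose at 2 weeks (0.39 ± 0.07), while Reln stayed near its 0h level (mean signal 988 against 966). Cygb, Des, Gfap, Hgf and Pdgfrb were not called at that time. These marker genes are few and each is a single probe set. From 2 to 4 weeks all 8 macrophage markers tested fell, as did 3 of 8 endothelial markers. At 4 weeks the mean signals of Lrat (784 against 670 at 0h) and Reln (712 against 966) went apart. At 6 weeks Lrat (-0.30 ± 0.07) and Reln (-0.67 ± 0.08) were lower than at 0h. Of the stellate cell markers not called then, Cygb (mean signal 230 against 189) and Des (150 against 139) had higher means. Gfap (117 against 127), Hgf (100.3 against 115.5) and Pdgfrb (82.3 against 109.5) had lower ones. The GAPDH control probe sets at the 3′ and the 5′ end, whose log2 difference grows as RNA degrades, differed by 0.47 ± 0.03 (SD, n = 3) in the 2-week arrays and 0.16 ± 0.08 in the unfed ones. In both later groups that difference was 0.33, with SDs of 0.03 (4 weeks) and 0.04 (6 weeks). The same difference for the beta-actin controls took another order, with 1.23 ± 0.18 in the unfed arrays, 1.42 ± 0.12 after 2 weeks, 1.18 ± 0.22 after 4 and 1.44 ± 0.07 after 6, and its 0h and 2-week arrays overlapped. The part of these differences in the matrix results was not tested.

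The stretches before the start sites of 3 members are shown because these genes shared the rise at 2 weeks but then took different courses: the collagen chain Col1a2 ended below its 0h level, the proteoglycan Lum was above its 0h level at 2 and 6 weeks, and the filament gene Vim rose, fell and rose again. Each is the 250 bases upstream of the annotated start, 5′ to 3′, from RefSeq on build GRCr8: Col1a2 at chr4:33518307-33518556, Lum at chr7:34245456-34245705 and Vim at chr17:81577011-81577260, all on the + strand. Capitals mark CCAAT, read as ATTGG on the other strand, and TATAAA, the TATA box.
Col1a2: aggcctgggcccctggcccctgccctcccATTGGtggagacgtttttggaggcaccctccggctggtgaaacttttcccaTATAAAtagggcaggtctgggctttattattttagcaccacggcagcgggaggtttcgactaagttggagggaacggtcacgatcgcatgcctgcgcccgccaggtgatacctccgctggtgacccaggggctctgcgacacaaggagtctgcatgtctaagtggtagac
Lum: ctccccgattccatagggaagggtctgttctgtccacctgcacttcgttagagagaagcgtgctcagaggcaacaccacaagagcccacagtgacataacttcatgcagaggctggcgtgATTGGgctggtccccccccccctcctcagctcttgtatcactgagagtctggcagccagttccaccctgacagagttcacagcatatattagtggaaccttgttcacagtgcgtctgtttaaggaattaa
Vim: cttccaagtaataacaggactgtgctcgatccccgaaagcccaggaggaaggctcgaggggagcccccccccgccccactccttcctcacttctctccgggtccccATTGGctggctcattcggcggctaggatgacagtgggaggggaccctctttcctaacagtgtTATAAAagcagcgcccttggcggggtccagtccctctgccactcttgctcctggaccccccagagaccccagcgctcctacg

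All 3 windows hold 1 match to CCAAT on the reverse strand, and those of Col1a2 and Vim also hold TATAAA. Of the 40 genes 27 had an entry in the promoter table. Searched on both strands, CCAAT was in 9 of these 27 windows and in 34.0% of all 33469 promoter windows of that length, TATAAA in 2 of 27 against 12.9%, and GGGCGG, the GC box, in 16 of 27 against 30.5%. In 0 of the 27 windows did matches to different motifs overlap. Of the 16 genes with an entry that rose at 2 weeks, 8 held CCAAT, 2 held TATAAA and 9 held GGGCGG. A match is a description of the letters only.

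The fibrillar collagens rose as a group at 2 weeks, with 5 of 5 higher and a median log2 change of 0.77. Col3a1, the chain of type III collagen and the brightest probe set of the group, gave signals of 3492, 3604 and 3507 at 0h, 6061, 6275 and 5804 at 2 weeks, 3864, 3700 and 3589 at 4 weeks, then 2838, 2881 and 2880 at 6 weeks. The 2-week arrays were high, the 4-week arrays overlapped with 0h, and the 6-week arrays lay below all others. Col3a1 rose 1.71-fold at 2 weeks (log2 change 0.77 ± 0.05 SE, n = 3 arrays per group, limma adjusted p = 7.52e-06). It was lower by 6 weeks than at 0h (-0.30 ± 0.05, limma adjusted p = 0.00219), after falling in each of the steps from 2 to 4 weeks (-0.70 ± 0.05) and from 4 to 6 weeks (-0.38 ± 0.05).

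Col1a1, which encodes the chain present in 2 copies in type I collagen, had signals of 155, 140 and 158 at 0h, 396, 301 and 272 at 2 weeks, 196, 151 and 207 at 4 weeks, then 188, 148 and 190 at 6 weeks. Its 2-week arrays stood clear of all others, and the remaining 3 groups overlapped. It rose 2.11-fold (1.08 ± 0.17, limma adjusted p = 0.00114) and fell 1.74-fold from 2 to 4 weeks (-0.80 ± 0.17, limma adjusted p = 0.0121; not called when the fit held only those groups, adjusted p = 0.0713). Its partner chain Col1a2 had 442, 414 and 332 at 0h, 582, 645 and 625 at 2 weeks, 309, 341 and 319 at 4 weeks, then 287, 297 and 261 at 6 weeks. Col1a2 was lower at 6 weeks than at 0h (-0.48 ± 0.10, limma adjusted p = 0.00784), and its second probe set changed by -0.51. Col1a1 changed by 0.21 ± 0.17 at 6 weeks and was not called, while its second, dimmer probe set changed by -0.23. Whether the changes of the 2 chains differ was not tested. The type V chains, which nucleate fibrils, rose as well: Col5a1 by 0.93 ± 0.21 and Col5a2 by 0.46 ± 0.10 on the log2 scale. Both fell from 2 to 4 weeks (-0.92 ± 0.21 and -0.65 ± 0.10). The Col5a1 fall was not called without 2-week array 1 or 2 or 4-week array 2 or 3, or with the mean of its probe sets (adjusted p up to 0.104).

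**Figure D2:**
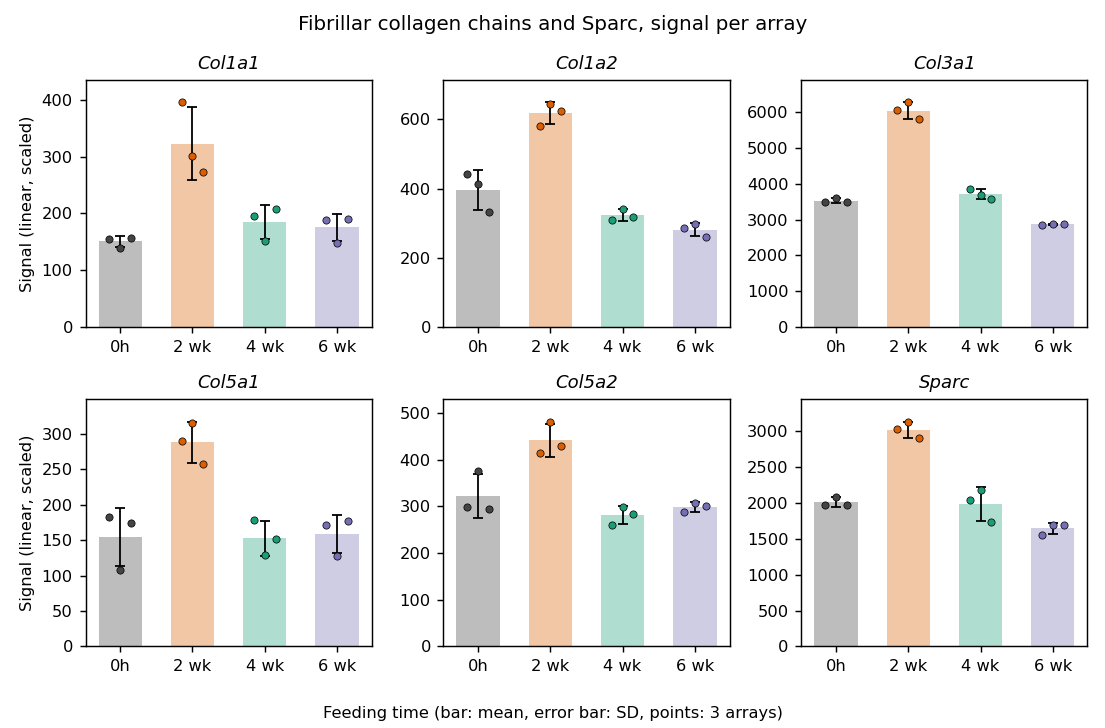
Signal (vertical axis, linear scale after the authors' scaling) of the 5 fibrillar collagen chains and of Sparc by feeding time (horizontal axis). Bars are means, error bars SDs and points the 3 arrays. All 2-week arrays lie above all arrays of the other groups, for Col3a1 at 5804 to 6275 against 2838 to 3864.

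Of the 8 basement membrane genes, 3 were higher at 2 weeks and 0 lower, with a median log2 change of 0.25. Col4a1, a chain of the network-forming type IV collagen, had signals of 556, 597 and 546 at 0h, 758, 828 and 776 at 2 weeks, 504, 512 and 498 at 4 weeks, then 547, 475 and 454 at 6 weeks. The 2-week arrays were above all others. It rose 1.39-fold (0.47 ± 0.08, limma adjusted p = 0.00142) and fell from 2 to 4 weeks (-0.64 ± 0.08, limma adjusted p = 0.000598). Its partner Col4a2 had 241, 217 and 122 at 0h and 383, 285 and 543 at 2 weeks, a wide spread in both groups that did not overlap. The Col4a2 rise of 2.10-fold (1.07 ± 0.32, limma adjusted p = 0.0338) was not called without 0h array 2 or 3 or 2-week array 1 or 3, with only those groups in the fit or with the replicate block (adjusted p up to 0.109).

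Nid1, which links laminin to type IV collagen, gave these signals: 677, 533 and 669 at 0h, 1071, 814 and 864 at 2 weeks, 941, 1005 and 903 at 4 weeks, then 611, 914 and 712 at 6 weeks. The 2- and 4-week arrays lay above those at 0h, and the 6-week arrays overlapped with them. It was higher at 2 weeks (0.55 ± 0.16) and at 4 weeks (0.61 ± 0.16), but a second probe set of Nid1 changed by -0.21 at 4 weeks. The 2-week call was lost without 0h array 2 or 2-week array 1 or 3, with only those groups in the fit or with the replicate block (adjusted p up to 0.104), and the 4-week call without 0h array 2 or 4-week array 2 or with the mean of both probe sets (adjusted p up to 0.222). Lamc1, a laminin chain, fell from 2 to 4 weeks (-0.40 ± 0.11, limma adjusted p = 0.0467), a call that was lost without any 1 of 10 arrays, all but 2-week array 2 and 4-week array 3, and under 5 other settings (adjusted p up to 0.163). Lamb1 and Lamb2, further laminin chains, were called in none of the 5 comparisons (0.29 ± 0.26 and 0.15 ± 0.32 at 2 weeks), nor were the vessel wall collagens Col15a1 (-0.91 ± 0.60) and Col18a1 (0.20 ± 0.08). Col18a1, whose C-terminal fragment is endostatin, was bright on every array (3537 to 4358), and Col15a1 was dim and scattered (28.0 to 163). A second probe set of Col18a1, nearly as bright, changed by 0.58 at 2 weeks and 0.37 at 4 weeks. Under 3 of the 22 alternatives, among them the mean of both probe sets, Col18a1 was higher at 2 weeks (0.20 to 0.39). The same 3 settings made it higher at 4 weeks (0.19 to 0.28).

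Of the 4 microfibrillar and fibril-associated collagens, 2 were higher at 2 weeks, with a median of 0.44. Col6a2, a chain of the beaded filaments of type VI collagen, had signals of 98.1, 122 and 104 at 0h, 185, 224 and 178 at 2 weeks, 209, 207 and 189 at 4 weeks, then 142, 161 and 135 at 6 weeks. Every fed array lay above every 0h array. It was higher at 2 weeks (0.85 ± 0.11), at 4 weeks (0.90 ± 0.11, limma adjusted p = 0.00036) and at 6 weeks (0.43 ± 0.11, limma adjusted p = 0.0197), and fell from 4 to 6 weeks (-0.47 ± 0.11). The 6-week call was lost without 0h array 1 or 3 or 6-week array 2 or with the trended, robust variance (adjusted p up to 0.0892). The last fall was lost without 4-week array 1 or 2 or 6-week array 1 or 3 and under 3 other settings (adjusted p up to 0.112). Col6a1 and Col6a3, the other chains of type VI collagen, were called in none of the 5 comparisons, with 2-week changes of 0.40 ± 0.20 and 0.44 ± 0.23. A second, dimmer probe set of Col6a3 changed by -1.14 at 2 weeks. Col6a1 passed as lower from 2 to 4 weeks under 5 of the 22 alternatives, and at 6 weeks against 0h under 2.

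Col14a1, which coats fibrils, had 1006, 1061 and 1093 at 0h, 1472, 1478 and 1335 at 2 weeks, 851, 907 and 902 at 4 weeks, then 730, 844 and 814 at 6 weeks. Its arrays were high at 2 weeks and below 0h at both later times. It rose at 2 weeks (0.44 ± 0.07, limma adjusted p = 0.00171), fell to 4 weeks (-0.69 ± 0.07) and was lower than at 0h at 4 weeks (-0.25 ± 0.07) and at 6 weeks (-0.41 ± 0.07, limma adjusted p = 0.00266). A second, dimmer probe set of Col14a1 changed by -0.12 at 2 weeks and by -1.06 at 6 weeks, and with the mean of both the 2-week rise was not called (adjusted p = 0.307). The 4-week call was lost without 0h array 2 or 3 or any 4-week array, and with quantile normalization, median centring or only those groups in the fit (adjusted p up to 0.244).

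**Figure D3:**
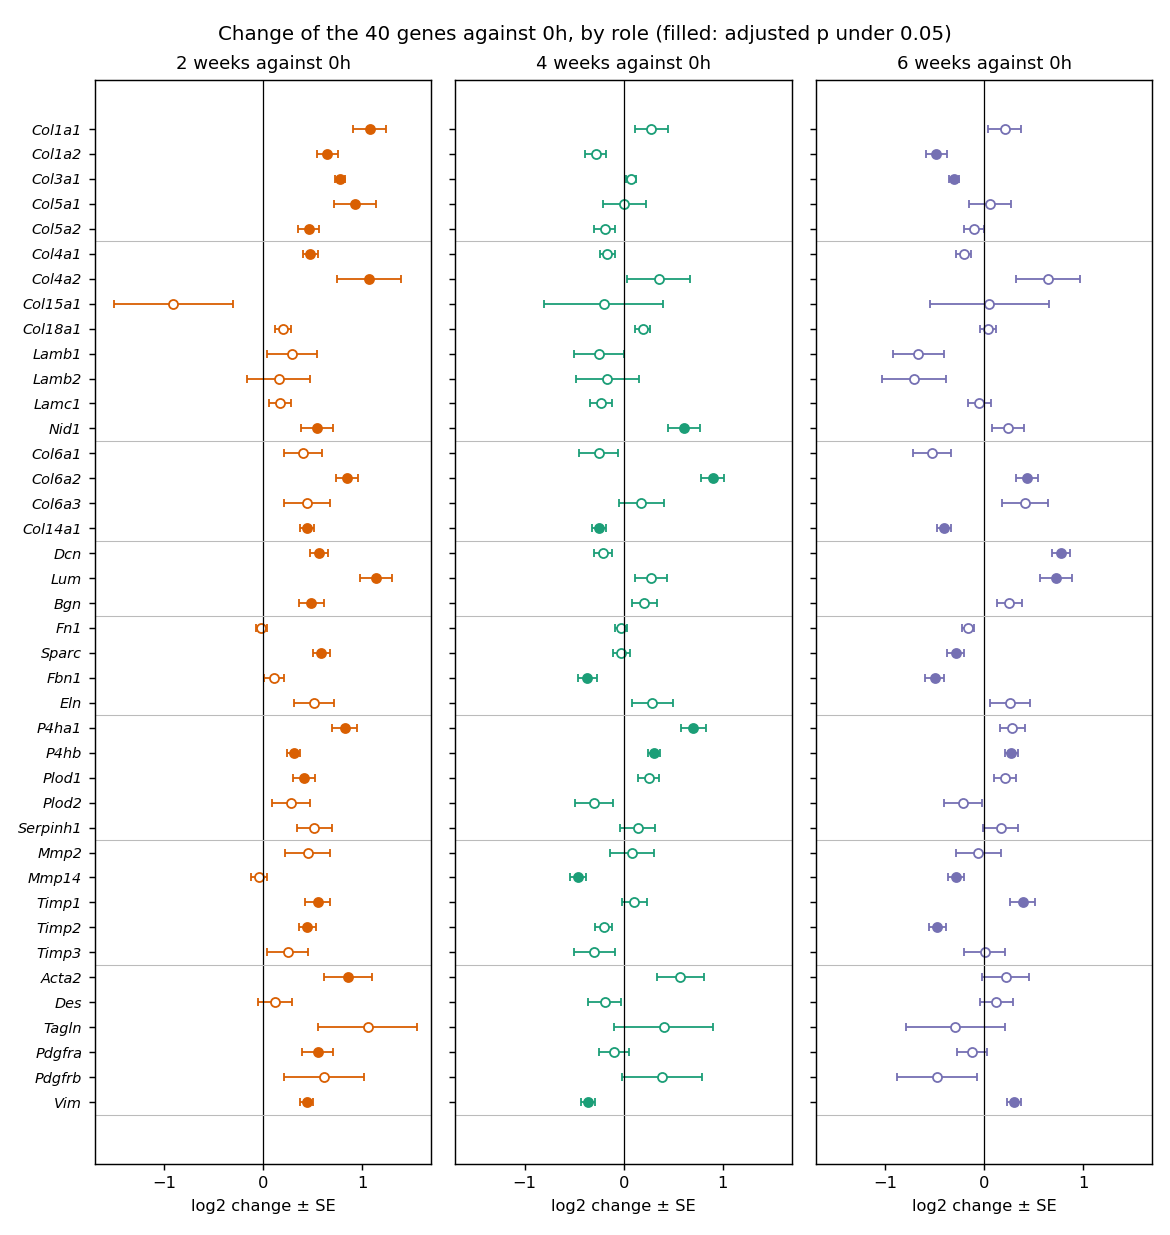
Log2 change of each of the 40 genes (rows, grouped by role between grey lines) against 0h at 2, 4 and 6 weeks (panels), with SE as bars and filled points for an adjusted p under 0.05. At 2 weeks 22 points are filled and all of them lie to the right of 0, against 4 to the right and 4 to the left at 4 weeks and 6 and 7 at 6 weeks.

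All 3 small leucine-rich proteoglycans were higher at 2 weeks, with a median of 0.56, and 2 of the 3 were higher than at 0h at 6 weeks too. Dcn, which encodes decorin, a collagen-binding proteoglycan, had signals of 527, 440 and 517 at 0h, 702, 702 and 783 at 2 weeks, 439, 417 and 421 at 4 weeks, then 913, 765 and 866 at 6 weeks. The 2- and 6-week arrays were above all arrays at 0h and 4 weeks. Dcn rose 1.48-fold at 2 weeks (0.56 ± 0.09, limma adjusted p = 0.00157), fell 1.71-fold to 4 weeks (-0.77 ± 0.09, limma adjusted p = 0.000578) and rose 1.99-fold from 4 to 6 weeks (0.99 ± 0.09, limma adjusted p = 0.000147), to end above 0h (0.78 ± 0.09). Dcn and Vim were the 2 of the 40 genes that rose from 4 to 6 weeks.

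Lum, which encodes lumican, had 73.0, 92.5 and 93.9 at 0h, 178, 180 and 216 at 2 weeks, 103, 85.0 and 129 at 4 weeks, then 141, 156 and 132 at 6 weeks. The 2- and 6-week arrays were above all 0h and 4-week arrays, and the 0h and 4-week arrays overlapped. Its rise at 2 weeks was 2.20-fold (1.14 ± 0.16, limma adjusted p = 0.000666), it fell to 4 weeks (-0.87 ± 0.16), and it was higher than at 0h at 6 weeks (0.73 ± 0.16, limma adjusted p = 0.00789), while the step from 4 to 6 weeks was not called (0.45 ± 0.16, limma adjusted p = 0.111). Bgn, which encodes biglycan, rose at 2 weeks (0.48 ± 0.13, limma adjusted p = 0.0189) and was called in no other comparison. That rise was lost without 0h array 1 or 3 or 2-week array 1, or with only those groups in the fit (adjusted p up to 0.0837).

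Of the 4 glycoprotein and elastic fibre genes, Sparc alone was higher at 2 weeks, and Fbn1 and Sparc were lower at 6 weeks. Sparc, which encodes osteonectin, a collagen-binding protein of remodelling tissue, had 1968, 2088 and 1972 at 0h, 3029, 3131 and 2908 at 2 weeks, 2046, 2183 and 1732 at 4 weeks, then 1558, 1687 and 1690 at 6 weeks. The 2-week arrays were clear of all others, and those at 6 weeks were below all 0h arrays. Sparc rose at 2 weeks (0.59 ± 0.09, limma adjusted p = 0.000817) and fell to 4 weeks (-0.61 ± 0.09). Its lower level at 6 weeks (-0.29 ± 0.09, limma adjusted p = 0.0313) was lost without any of the 0h or 6-week arrays, with median centring or with the mean of its probe sets (adjusted p up to 0.705), and its second probe set changed by 0.14 there. At 4 weeks the mean of both probe sets gave a rise over 0h of 0.41 (adjusted p = 0.0283), where the brighter gave -0.02.

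Fbn1, the fibrillin of elastic microfibrils, had 351, 341 and 350 at 0h, 398, 396 and 334 at 2 weeks, 271, 302 and 238 at 4 weeks, then 259, 239 and 239 at 6 weeks. The 4- and 6-week arrays were below all earlier ones. It was lower than at 0h at 4 weeks (-0.37 ± 0.10) and at 6 weeks (-0.50 ± 0.10, limma adjusted p = 0.0041), and lower at 4 than at 2 weeks (-0.48 ± 0.10). The 4-week call against 0h was lost without 0h array 1 or 3 or 4-week array 3, and with quantile normalization, median centring or only those groups in the fit (adjusted p up to 0.117). The fall from 2 to 4 weeks was lost in that last setting (adjusted p = 0.0841). Fn1, which encodes fibronectin, made in the liver largely by hepatocytes, was among the brightest signals at 18251 to 22644 and was called in none of the 5 comparisons, with -0.02 ± 0.06 at 2 weeks. Eln, which encodes elastin, was likewise not called (0.51 ± 0.20 at 2 weeks).

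Of the 5 collagen-processing genes, 3 were higher than at 0h at 2 weeks, with a median of 0.41, 2 were higher at 4 weeks and 1 at 6 weeks. From 2 to 4 weeks 0 of the 5 were called (limma; 1 lower and 0 higher at an unadjusted p under 0.05). P4ha1, a catalytic subunit of prolyl 4-hydroxylase, had signals of 428, 357 and 341 at 0h, 684, 683 and 621 at 2 weeks, 584, 613 and 630 at 4 weeks, then 374, 529 and 478 at 6 weeks. Its 2- and 4-week arrays were above all 0h arrays, and the 6-week arrays overlapped with 0h. P4ha1 was 1.77-fold higher at 2 weeks (0.82 ± 0.13, limma adjusted p = 0.00122) and 1.63-fold higher at 4 weeks (0.70 ± 0.13, limma adjusted p = 0.0028).

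P4hb, the other subunit of that enzyme and the protein disulfide isomerase of the endoplasmic reticulum, ranged from 16139 to 17136 at 0h, from 20275 to 20557 at 2 weeks, from 19726 to 20813 at 4 weeks and from 18757 to 21697 at 6 weeks. All 9 fed arrays were above the 3 unfed ones. Its changes of 0.31 ± 0.06, 0.30 ± 0.06 and 0.27 ± 0.06 at the 3 times lay within 1 SE of each other, and its steps between fed groups were not called (-0.00 ± 0.06 and -0.03 ± 0.06). The 6-week call was lost with only those groups in the fit (adjusted p = 0.0609). Plod1, a lysyl hydroxylase, was higher at 2 weeks (0.41 ± 0.11, limma adjusted p = 0.0195), a call lost without 0h array 1 or 3 or 2-week array 2 or 3 (adjusted p up to 0.0681). Its relative Plod2 (0.28 ± 0.19) and the collagen chaperone Serpinh1 (0.52 ± 0.18, limma adjusted p = 0.0533) were not called.

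**Figure D4:**
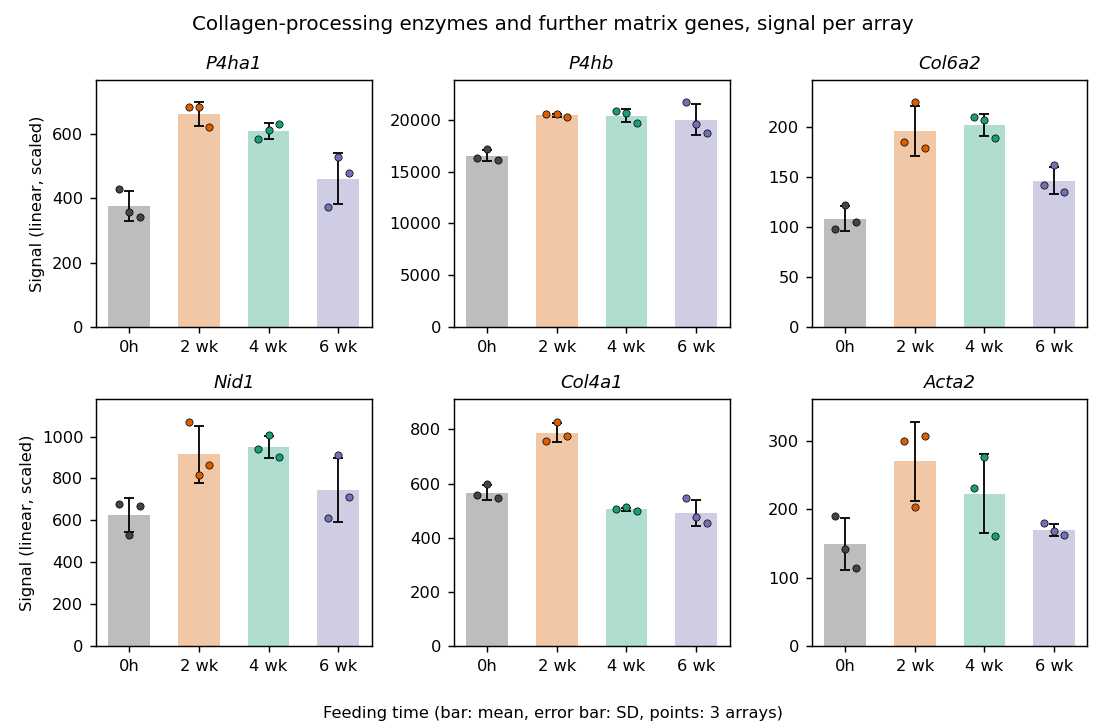
Signal (vertical axis, linear) of 2 collagen-processing enzymes, 3 collagen or basement membrane genes and Acta2 by feeding time (horizontal axis). Bars are means, error bars SDs and points the 3 arrays. P4hb and Col6a2 lie above their 0h arrays in every fed group, and P4ha1 and Nid1 at 2 and 4 weeks.

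Among the proteases and inhibitors, 2 of 5 genes, both inhibitors, were higher at 2 weeks. Timp1 had signals of 257, 341 and 314 at 0h, 486, 435 and 410 at 2 weeks, 294, 379 and 310 at 4 weeks, then 413, 406 and 370 at 6 weeks. The 2- and 6-week arrays were above those at 0h, and the 4-week arrays overlapped with them. It rose 1.46-fold at 2 weeks (0.55 ± 0.13, limma adjusted p = 0.0103). Its higher level at 6 weeks (0.39 ± 0.13, limma adjusted p = 0.0471) and its fall from 2 to 4 weeks (-0.44 ± 0.13, limma adjusted p = 0.0493) were close to the threshold, and each was lost without any 1 of 9 arrays. For the 6-week call these were all but 0h array 2 and 4-week arrays 1 and 2 (adjusted p up to 0.151, with 5 other settings also ending it), and for the fall all but 0h arrays 1 and 2 and 4-week array 2 (adjusted p up to 0.153, with 6 other settings).

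Timp2 had 919, 897 and 922 at 0h, 1337, 1193 and 1202 at 2 weeks, 743, 847 and 799 at 4 weeks, then 583, 705 and 692 at 6 weeks. The 2-week arrays were above and the 4- and 6-week arrays below all 0h arrays. It rose at 2 weeks (0.45 ± 0.09), fell to 4 weeks (-0.64 ± 0.09) and was lower than at 0h at 6 weeks (-0.47 ± 0.09, limma adjusted p = 0.00294). A second, dimmer probe set of Timp2 changed by 0.01, 0.22 and 0.02 in these comparisons, and with the mean of both none of the 3 calls was kept (adjusted p of 0.304, 0.425 and 0.32). Timp3, the inhibitor bound to the matrix, was called in none of the 5 comparisons (0.25 ± 0.21 at 2 weeks).

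Mmp14, the membrane-bound metalloproteinase that activates Mmp2, was not called at 2 weeks (-0.04 ± 0.08). Its signals were 2579, 2656 and 2862 at 0h, 2737, 2807 and 2352 at 2 weeks, 2057, 1993 and 1827 at 4 weeks, then 2174, 2247 and 2212 at 6 weeks. The 4- and 6-week arrays were below all 0h and 2-week arrays. Mmp14 was lower than at 0h at 4 weeks (-0.46 ± 0.08, limma adjusted p = 0.00212) and at 6 weeks (-0.29 ± 0.08, limma adjusted p = 0.0253), and fell from 2 to 4 weeks (-0.42 ± 0.08, limma adjusted p = 0.00783). The 6-week call was lost without 0h array 2 or 3 or any 6-week array and with median centring (adjusted p up to 0.129), and the fall with median centring or only those groups in the fit (adjusted p up to 0.0656). With the mean of its probe sets Mmp14 was lower already at 2 weeks (-0.37, adjusted p = 0.00752). Mmp2, the gelatinase, was not called in any of the 5 comparisons (0.45 ± 0.22 at 2 weeks).

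**Figure D5:**
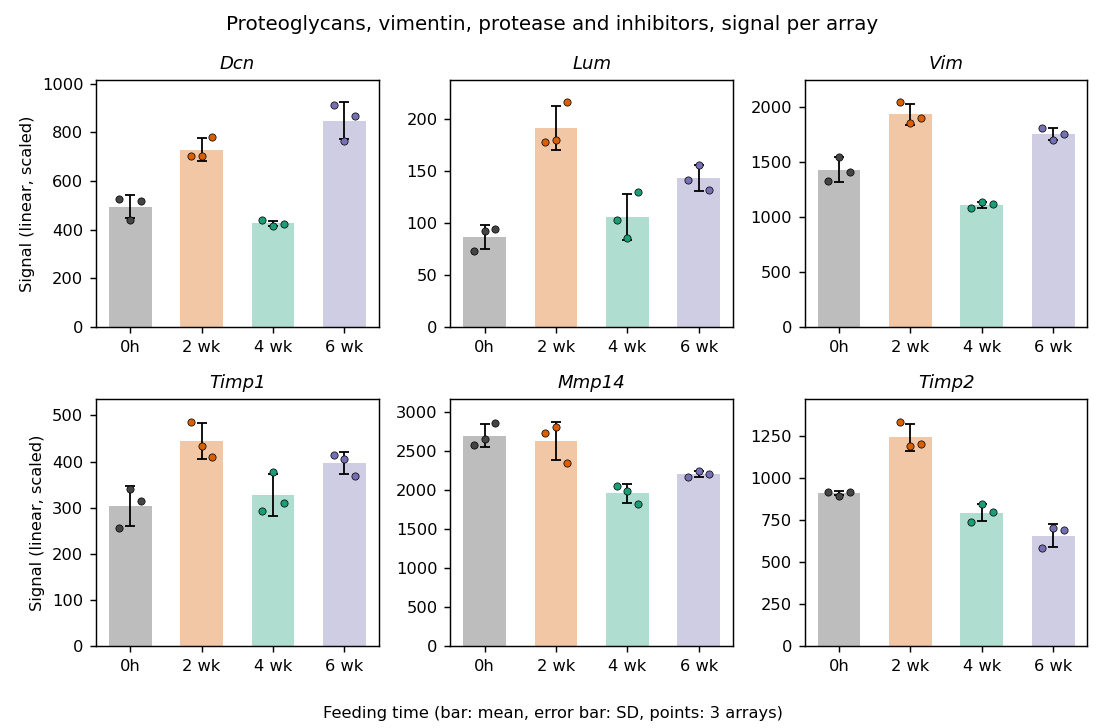
Signal (vertical axis, linear) of Dcn, Lum, Vim, Timp1, Mmp14 and Timp2 by feeding time (horizontal axis). Bars are means, error bars SDs and points the 3 arrays. Dcn, Lum, Vim and Timp1 have a second high group at 6 weeks, whereas the 6-week arrays of Mmp14 and Timp2 lie below those at 0h.

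Of the 6 contractile, filament and receptor genes 3 were higher at 2 weeks, with a median of 0.58. Vim, the intermediate filament of mesenchymal cells, had signals of 1321, 1546 and 1411 at 0h, 2040, 1852 and 1896 at 2 weeks, 1080, 1135 and 1115 at 4 weeks, then 1806, 1697 and 1750 at 6 weeks. The arrays were high at 2 weeks, below 0h at 4 weeks and above 0h again at 6 weeks. Vim was called in all 5 comparisons, higher at 2 weeks (0.44 ± 0.07), lower at 4 weeks (-0.36 ± 0.07) and higher at 6 weeks (0.30 ± 0.07) than at 0h, with steps of -0.80 ± 0.07 (limma adjusted p = 8.31e-05) and 0.66 ± 0.07 (limma adjusted p = 0.000359). With only those groups in the fit the 6-week call was lost (adjusted p = 0.0514). The macrophage marker sum had a like course, with 20353 to 21330 at 4 weeks and 22541 to 24929 at 6 weeks, though at 6 weeks it stayed below 0h, and its part in the Vim result was not tested.

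Acta2, the smooth muscle actin of activated stellate cells and vessel walls, had 190, 143 and 115 at 0h, 299, 204 and 308 at 2 weeks, 231, 276 and 162 at 4 weeks, then 179, 168 and 163 at 6 weeks. The 2-week arrays were above 0h, and the later groups overlapped with it. Acta2 rose 1.81-fold (0.86 ± 0.24, limma adjusted p = 0.0247), a call lost without 0h array 2 or 3 or 2-week array 1 or 3 or with only those groups in the fit (adjusted p up to 0.0852). Pdgfra, a platelet-derived growth factor receptor of fibroblasts, had 429, 674 and 649 at 0h and 799, 840 and 878 at 2 weeks, all above 0h. It rose by 0.55 ± 0.15, a call lost without 2-week array 2 or 3 or with only those groups in the fit (adjusted p up to 0.0909), and fell to 4 weeks (-0.65 ± 0.15), a call lost without any 2-week array or 4-week array 1 or 3 (adjusted p up to 0.075). Des, which encodes the desmin of rat stellate cells, showed no call (0.12 ± 0.17 at 2 weeks). Neither did Tagln, a smooth muscle actin-binding protein (1.06 ± 0.50), or the stellate cell receptor Pdgfrb (0.61 ± 0.41). Tagln and Pdgfrb each had a dim array at 6 weeks. The other, dimmer probe sets of Pdgfrb changed by -0.75 and -0.86 at 2 weeks.

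Across the roles, 4 genes were called against 0h at all 3 times: Col14a1, Col6a2, P4hb and Vim. Of the 22 genes higher at 2 weeks, 4 were also higher at 4 weeks (Nid1, Col6a2, P4ha1 and P4hb) and 6 at 6 weeks (Col6a2, Dcn, Lum, P4hb, Timp1 and Vim). Another 5 of the 22 were lower than at 0h at 6 weeks (Col1a2, Col3a1, Col14a1, Sparc and Timp2). Calls shared between times were not counted over all genes tested, so these counts have no background beside them. Between 2 and 6 weeks, a comparison added after the data were seen, 15 of the 40 genes were lower and 0 higher (limma; 24 and 1 at an unadjusted p under 0.05), where 5.74% of all genes were lower and 4.78% higher. The authors' deposited log2 ratios come from the same arrays as the calls, so their signs are not independent support. The median of the 9 array pairs had the sign of the call for 22 of 22 calls at 2 weeks. At 4 weeks it did for 8 of 8 and at 6 weeks for 13 of 13. All 9 pairs had that sign for 21 of 22, 8 of 8 and 13 of 13 calls.

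Matrix genes outside the 40 were read from a further list of 82, of which 49 were tested. At 2 weeks 10 of the 49 were higher and 2 lower, where 15.5% of all genes tested were higher and 12.6% lower, and the median was 0.35 against 0.01. At 4 weeks 9 were higher and 3 lower (14.3% and 15.1% of all genes; median 0.04 against -0.03), and at 6 weeks 6 and 4 (14.7% and 12.6%; -0.03 against 0.01). From 2 to 4 weeks 2 rose and 5 fell (5.13% and 8%). These counts were not tested against those over all genes. Collagen-processing genes gave 4 of 7 higher at 2 weeks, among them Crtap, a partner of prolyl 3-hydroxylase (0.84 ± 0.18), and Bmp1, the procollagen C-proteinase (0.79 ± 0.08). The crosslinking enzyme Lox, a lysyl oxidase, fell where the fibrillar collagens rose. Its signals were 540, 480 and 690 at 0h, 71.2, 85.0 and 77.8 at 2 weeks, 1869, 1884 and 1706 at 4 weeks, then 231, 183 and 199 at 6 weeks. No group of Lox arrays overlapped with another. It fell at 2 weeks (-2.84 ± 0.14), when its relative Loxl2 rose (1.04 ± 0.09, limma adjusted p = 2.89e-05), and rose from 2 to 4 weeks (4.53 ± 0.14, limma adjusted p = 1.84e-07), when Loxl2 fell (-0.83 ± 0.09).

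Other collagen chains gave 1 of 7 higher at 2 weeks, Col27a1, a fibrillar chain of cartilage, with signals of 105, 106 and 86.1 at 0h and 300 to 395 on the 9 fed arrays. It stayed high, with changes of 1.80 ± 0.11, 1.68 ± 0.11 and 1.75 ± 0.11 at the 3 times. Of 12 further proteoglycans and glycoproteins 1 was higher at 2 weeks, Omd, which encodes the keratan sulfate proteoglycan osteomodulin (0.96 ± 0.08), and it was also higher at 4 weeks (0.79 ± 0.08) and at 6 weeks (1.26 ± 0.08). Of 7 further basement membrane genes 1 was higher at 2 weeks, Agrn, which encodes agrin (0.51 ± 0.10), and Lama2, a laminin chain, was lower at 6 weeks (-1.15 ± 0.24). Of 12 further proteases and inhibitors 1 was higher at 2 weeks, Mmp19 (0.68 ± 0.05), and 1 lower, the membrane sheddase Adam10 (-0.78 ± 0.16).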

How the data were processed

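Per the file headers, the deposited sheet holds signal intensity values, 1 column per array, and the authors' log2 ratios and linear ratios for all pairs of a fed and an unfed array. GCOS 2.0 is named in the submitters' processing notes. The trimmed mean of the deposited intensity was 500.2 to 500.3 on every array, and the deposited series matrix held the same values within 0.1.

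Intensities were converted to log2(signal + 1). Symbols of the sheet were updated with RefSeq gene names (assembly GRCr8) (15176 probe sets by current symbol, 3208 by an older one, 1501 kept, 11134 without a symbol, 23 with several), and 57 array controls were left out of 31099 probe sets. The brightest probe set stood for each of 13886 genes. Genes with a mean above the 30th percentile (5.45) were tested with limma 3.58.1 in R 4.3.3 (lmFit with a mean per group over all 12 arrays, eBayes, 8 residual degrees of freedom), with Benjamini-Hochberg adjustment over 11322 genes. An array was dim for a gene below its own 30th percentile (signal 45.5 to 54.0). Changes are on the log2(signal + 1) scale, which understates those of dim genes. Only 12 arrays limit the precision. The procedure was tested on simulated data.

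The members and all lists were chosen with earlier results of these data known. A gene of the stellate cell marker list is not reported here, and no sum or count is given for that list. Any of the 40 genes could be named, with full values for the called genes with the largest changes in each role group, and up to 2 called examples from the other lists. Same-numbered arrays shared little deviation from their group means (correlations of -0.02 to 0.08 over 18 pairs, and -0.06 to 0.05 over 36 other pairs). This check showed no strong pairing by number and cannot exclude a weak one. Pearson correlations between arrays were 0.96 to 0.969 within and 0.94 to 0.961 between groups.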

Additional observations from a re-analysis of the deposited data

Results flagged for a closer look

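Of the 40 genes, 6 were called in opposite directions against 0h at different times, a count that was not made over all genes tested. They were picked for those opposite calls, which already fix that the times differ. The limma values for the difference between the times give its size and are no separate support. Col3a1 was higher at 2 weeks (0.77) and lower at 6 weeks (-0.30), a difference of -1.08 ± 0.05 (limma adjusted p = 1.57e-06). Col1a2 was higher at 2 weeks (0.65) and lower at 6 weeks (-0.48), a difference of -1.13 ± 0.10 (limma adjusted p = 0.000155). Sparc went from 0.59 to -0.29 (difference -0.88 ± 0.09, limma adjusted p = 0.000198) and Timp2 from 0.445 to -0.47 (-0.92 ± 0.09, limma adjusted p = 0.000155), and for both genes a second probe set was not lower at 6 weeks.

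Col14a1 was higher at 2 weeks (0.44) and lower at 4 weeks (-0.25) and 6 weeks (-0.41). Its differences from 2 weeks were -0.69 ± 0.07 at 4 weeks (limma adjusted p = 0.000283) and -0.84 ± 0.07 at 6 weeks (limma adjusted p = 9.48e-05). A second probe set of Col14a1 changed by -0.12 at 2 weeks, and with the mean of both the 2-week rise was not called (limma adjusted p = 0.307). The 4-week call of Col14a1 against 0h was lost under 8 of 22 alternatives. Vim was higher at 2 weeks (0.44), lower at 4 weeks (-0.36) and higher at 6 weeks (0.30), with a fall of -0.80 ± 0.07 from 2 to 4 weeks (limma adjusted p = 8.31e-05) and a rise of 0.66 ± 0.07 from 4 to 6 weeks (limma adjusted p = 0.000359).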

How the results depend on the processing

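Each of the 64 calls over the 5 comparisons was recomputed under 22 alternatives, and 37 were kept under all of them: 14 of 22 at 2 weeks, 5 of 8 at 4 weeks, 6 of 13 at 6 weeks, 9 of 17 from 2 to 4 weeks and 3 of 4 from 4 to 6 weeks. Another 25 changes that were not called passed under at least 1 alternative, and these include 9 of the 15 genes called in no comparison. The total numbers of genes called stayed within 1.5 times the reported ones, but the higher or lower counts did not at 4 weeks, at 6 weeks and from 4 to 6 weeks; with the trended, robust variance the last had 4 lower. With 1 array left out they were 17 to 23 at 2 weeks, 6 to 9 at 4 weeks, 9 to 13 at 6 weeks, 13 to 17 from 2 to 4 weeks and 3 to 6 from 4 to 6 weeks. With the replicate block they were 20, 8, 12, 15 and 4, and with only the groups compared in the fit 17, 6, 10, 12 and 3. Median centring of each array raised the share of higher genes among all calls from 48.6% to 62.9% at 4 weeks, when 5 of the 40 genes were higher and 2 lower, and from 39.1% to 50.8% in the step from 2 to 4 weeks, when 0 rose and 14 fell. The change of Sparc at 4 weeks reversed to 0.41 with the mean of all its probe sets, 1 of which moved the other way from the brighter one. An alternative set of gene names from the platform table was not run, as no such table was used here. Of the 20 genes with over 1 probe set, 16 had probe sets of opposite direction in at least 1 comparison, and among called changes these were Col14a1, Nid1, Sparc and Timp2. In all, 4 of the 40 genes (Col15a1, Lamb2, Tagln and Pdgfrb) had at least 1 dim array, which limits what their values show.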
